A study of Mus musculus with 12 samples.

Results

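The transcripts described here are 10 marker genes of GABAergic interneurons, the inhibitory local neurons of the hippocampus, read in bulk RNA of dissected CA1 tissue. They were chosen by name and matched to Ensembl IDs through the annotation, 10 of the 48709 gene IDs counted: the pan markers Gad1, Gad2 and Slc32a1, and the subtype markers Pvalb, Sst, Vip, Cck, Npy, Calb2 and Lhx6. The groups were 6 libraries from mice whose coronary artery had been ligated to cause myocardial infarction (MI) and 6 from mice given a similar operation without ligation (Sham). Strain, age, sex and time after surgery are not given in the sources used here, and the labels do not tie each library to its own mouse, so the p-values reflect how these libraries spread. CA1 was cut out under a microscope and frozen, polyadenylated RNA was sequenced as single-end reads, and library totals ran from 20764133 to 35643127 counts.

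GABAergic interneurons make their transmitter from glutamate with the glutamic acid decarboxylases and load it into vesicles with the vesicular GABA transporter. They fall into families that differ in origin and wiring: cells that contain parvalbumin fire fast and contact the cell bodies and axon starts of pyramidal neurons, cells that contain somatostatin contact their dendrites, and many cells that contain vasoactive intestinal peptide (VIP) contact other interneurons. Parvalbumin and somatostatin cells arise mostly from the medial ganglionic eminence, where the transcription factor Lhx6 directs their fate, while VIP and most cholecystokinin (CCK) cells arise from the caudal ganglionic eminence. In rodents the genes are not all private to interneurons: Cck is also transcribed by pyramidal neurons, and Calb2 by hilar mossy cells of the mouse and by Cajal-Retzius cells near the hippocampal fissure.

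All 10 genes were detected in all 12 libraries, with 177 counts for the lowest value (Calb2) and 12402 for the highest (Gad1), and all 10 passed the filter on low counts. Between MI and Sham, 0 of the 10 passed an adjusted p of 0.05 (edgeR quasi-likelihood, Benjamini-Hochberg over 16829 genes), where 0 genes (0%) passed in all and the smallest adjusted p was 0.597. DESeq2 called 16 genes (0.0951%), 0 of them members, and put 4 members at an unadjusted p under 0.05, against 7.75% of all genes. At an unadjusted p under 0.05 stood 3 of the 10 (Sst, Pvalb and Slc32a1, each with the higher mean in MI), against 7.55% of all genes. The MI and Sham ranges overlapped in all 10, and 0.41% of all genes had ranges apart. On the higher side alone the share of all genes was 3.95%, and on the lower side, which held 0 members, it was 3.59%. The median log2 fold change of the 10 was 0.09 with 6 of 10 positive, against -0.01 and 47.6% positive over all genes tested. In bulk tissue, fewer cells of a type and less RNA per cell cannot be told apart. Sham 1 and Sham 6 stood apart from the other libraries in markers of neighbouring tissue, with values given beside Vip, and the log2 fold change of each member is also given without them.

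The start regions of 4 members are shown here: those of the 3 with an unadjusted p under 0.05, and that of Vip, a peptide gene whose means were close in MI and Sham. The windows are from RefSeq on GRCm38.p6, run from 250 bases before to 50 bases after the transcript start, and are written 5′ to 3′ on the gene's strand. The windows searched, 12 in all, covered 9 of the 10 members; for Pvalb the one at the annotated gene start is printed. Capitals mark the cAMP response element TGACGTCA, a site of the factor CREB, its shorter core TGACG on either strand, and the TATA box TATAAA on either strand.
Sst, minus strand, chr16:23890795-23891094: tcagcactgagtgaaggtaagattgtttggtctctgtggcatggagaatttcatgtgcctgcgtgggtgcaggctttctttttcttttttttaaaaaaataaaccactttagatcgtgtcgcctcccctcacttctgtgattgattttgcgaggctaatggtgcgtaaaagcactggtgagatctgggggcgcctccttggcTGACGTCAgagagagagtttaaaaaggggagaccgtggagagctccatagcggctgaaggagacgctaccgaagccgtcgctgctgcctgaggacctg
Vip, plus strand, chr10:5638968-5639267: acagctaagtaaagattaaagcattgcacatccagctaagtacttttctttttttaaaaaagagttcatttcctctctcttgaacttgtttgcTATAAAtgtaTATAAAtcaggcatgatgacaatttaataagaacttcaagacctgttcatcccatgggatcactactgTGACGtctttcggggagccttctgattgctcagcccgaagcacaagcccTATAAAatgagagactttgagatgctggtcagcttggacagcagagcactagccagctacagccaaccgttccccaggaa
Slc32a1, plus strand, chr2:158610508-158610807: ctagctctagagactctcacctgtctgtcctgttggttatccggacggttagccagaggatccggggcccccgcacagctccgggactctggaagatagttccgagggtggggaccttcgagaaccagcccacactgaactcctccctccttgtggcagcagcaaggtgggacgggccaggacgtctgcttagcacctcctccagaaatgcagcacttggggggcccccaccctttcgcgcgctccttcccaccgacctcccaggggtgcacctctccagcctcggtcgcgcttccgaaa
Pvalb, minus strand, chr15:78206351-78206650: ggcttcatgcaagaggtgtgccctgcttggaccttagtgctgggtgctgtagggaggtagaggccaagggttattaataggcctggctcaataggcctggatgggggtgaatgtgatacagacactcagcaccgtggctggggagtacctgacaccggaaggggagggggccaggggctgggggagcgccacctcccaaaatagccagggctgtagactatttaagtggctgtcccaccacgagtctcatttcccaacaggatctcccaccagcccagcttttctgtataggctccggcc

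The full palindrome TGACGTCA stood in the Sst window, 48 bases before the start, and in no other member's window; 1.79% of 32851 promoter windows of the same length hold it. The core TGACG, which the palindrome contains on both strands, also stood in the windows of Vip (79 bases before the start), Cck (47) and Gad2 (33), and 20.8% of all windows hold it. A TATA box, present in 13.6% of all windows, stood 30 bases before the Vip start, with 2 further copies upstream at 157 and 147 bases before it. The same letters stood on the other strand in the windows of Gad1, 141 bases before the start, and of 1 of the Lhx6 starts, 3 bases after it. The Slc32a1 window and the Pvalb window printed hold none of these letters. An E-box CANNTG and the homeobox core TAATTA were also searched on both strands and are not marked; 72.3% and 5.29% of all windows hold them. These matches are descriptions of the letters and no measure of factor binding.

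Sst had the highest level per length of the 10, with a mean of 291 CPM per kilobase of exon over the 12 libraries (CPM, counts scaled to library size), and a range of 207 to 344. Cck followed with 145 (121 to 184) and Npy with 63.4 (43.1 to 85.2). Sst and Cck did not overlap in range, nor did Cck and Npy. Gad1 had 45.6, Pvalb 31.8 and Gad2 30.6 CPM per kilobase, and from Npy down to Gad2 each gene overlapped its neighbour in range. Slc32a1 lay lower at 20.6 and did not overlap Gad2 or Vip. Vip had 7.58, Calb2 7.33 and Lhx6 4.70 CPM per kilobase, again with overlapping neighbours. The lengths are the union of all annotated exons, 566 bases for Npy and 7639 for Gad1, so a gene with long rarely used exons is set too low on this scale.

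**Figure D1:**
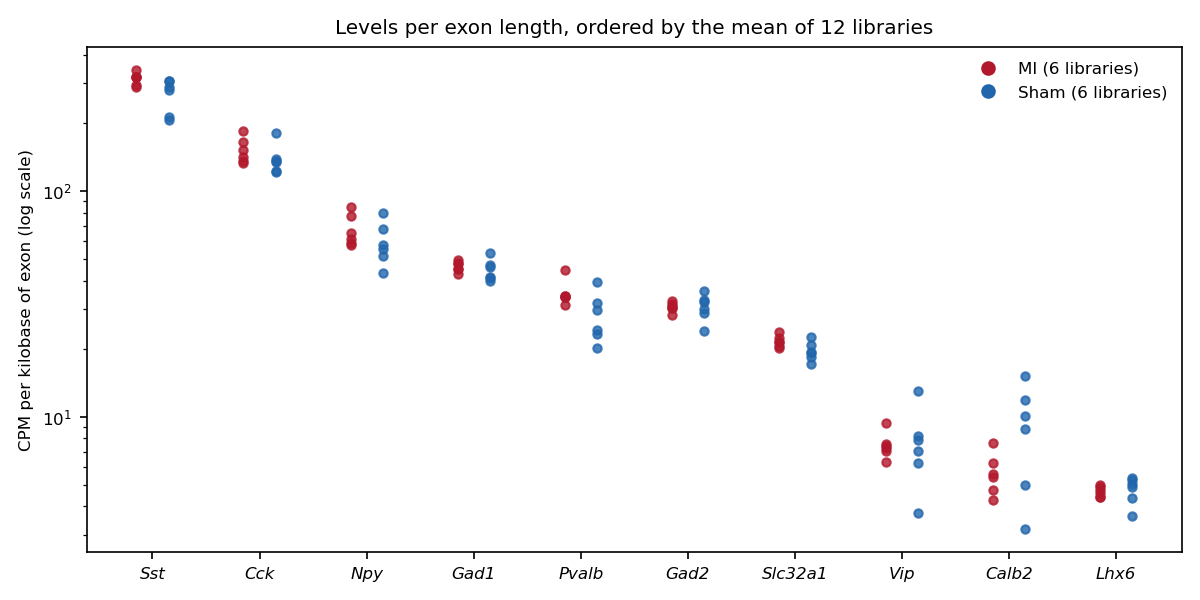
Level per kilobase of exon in each library (log axis), with MI left of Sham for each gene and genes ordered by the mean of 12 libraries. Sst lies at or above 207 CPM per kilobase in all libraries, and Lhx6 has the lowest mean, 4.70.

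Gad1 and Gad2 had near-equal means in MI and Sham, and Slc32a1 a slightly higher one in MI. Gad1 (ENSMUSG00000070880, chromosome 2, 70553072 to 70602014, mm10) encodes GAD67, the decarboxylase that makes most of the brain's GABA, and had 328, 354 and 377 CPM as the lowest, median and highest MI library, against 305, 335 and 407 in Sham. Sham 4 lay above all MI libraries, and Sham 2, Sham 5 and Sham 6 below all of them. Its log2 fold change was 0.04 (SE 0.07, 95% interval -0.11 to 0.20, adjusted p 0.922). Gad2 (chromosome 2, 22622205 to 22693874), which encodes GAD65, the decarboxylase bound to synaptic vesicles, had 166, 179 and 191 CPM in MI, against 140.1, 182.5 and 212 in Sham. Again Sham 6 was the lowest and Sham 4 the highest of the 12 libraries. The log2 fold change of Gad2 was -0.0019 (SE 0.08, interval -0.18 to 0.17). Without Sham 1 and Sham 6, a pair of libraries described below, Gad1 had 0.02 (SE 0.08) and Gad2 -0.09 (SE 0.06). There were 1.91 to 2.13 Gad1 reads for each Gad2 read in MI and 1.68 to 2.17 in Sham.

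Slc32a1 (ENSMUSG00000037771, chromosome 2, 158610767 to 158615748), the vesicular GABA transporter, had 56.3, 59.8 and 66.4 CPM in MI, against 47.7, 53.9 and 63.2 in Sham. The Sham median lay below each of the 6 MI libraries, but the groups overlapped, since Sham 4 and Sham 3 reached the MI range. The means were 60.4 ± 3.63 CPM over MI libraries and 54.7 ± 5.38 over Sham libraries (SD, n = 6), a log2 fold change of 0.14 (SE 0.06, interval 0.00 to 0.28). The unadjusted p was 0.0442 and the adjusted p 0.646 in edgeR, and the exact permutation test of its mean log2 CPM gave p = 0.0584, two-sided. The value was 0.08 (SE 0.06) without Sham 1 and Sham 6.

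Of 8 genes of GABA synthesis, transport and breakdown, the pan markers included, 0 were called, and Slc32a1 alone had an unadjusted p under 0.05; 4 of the 8 log2 fold changes were positive, with a median of 0.02. Slc6a13, a GABA transporter found mainly in the meninges and vessels of the brain, had 6.52 ± 2.89 CPM over MI libraries and 11.6 ± 8.12 over Sham libraries (SD, n = 6), with 25.9 CPM in Sham 1 alone. Aldh5a1 and Abat, enzymes that break GABA down, had log2 fold changes of 0.07 (SE 0.06) and 0.05 (SE 0.07).

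**Figure D2:**
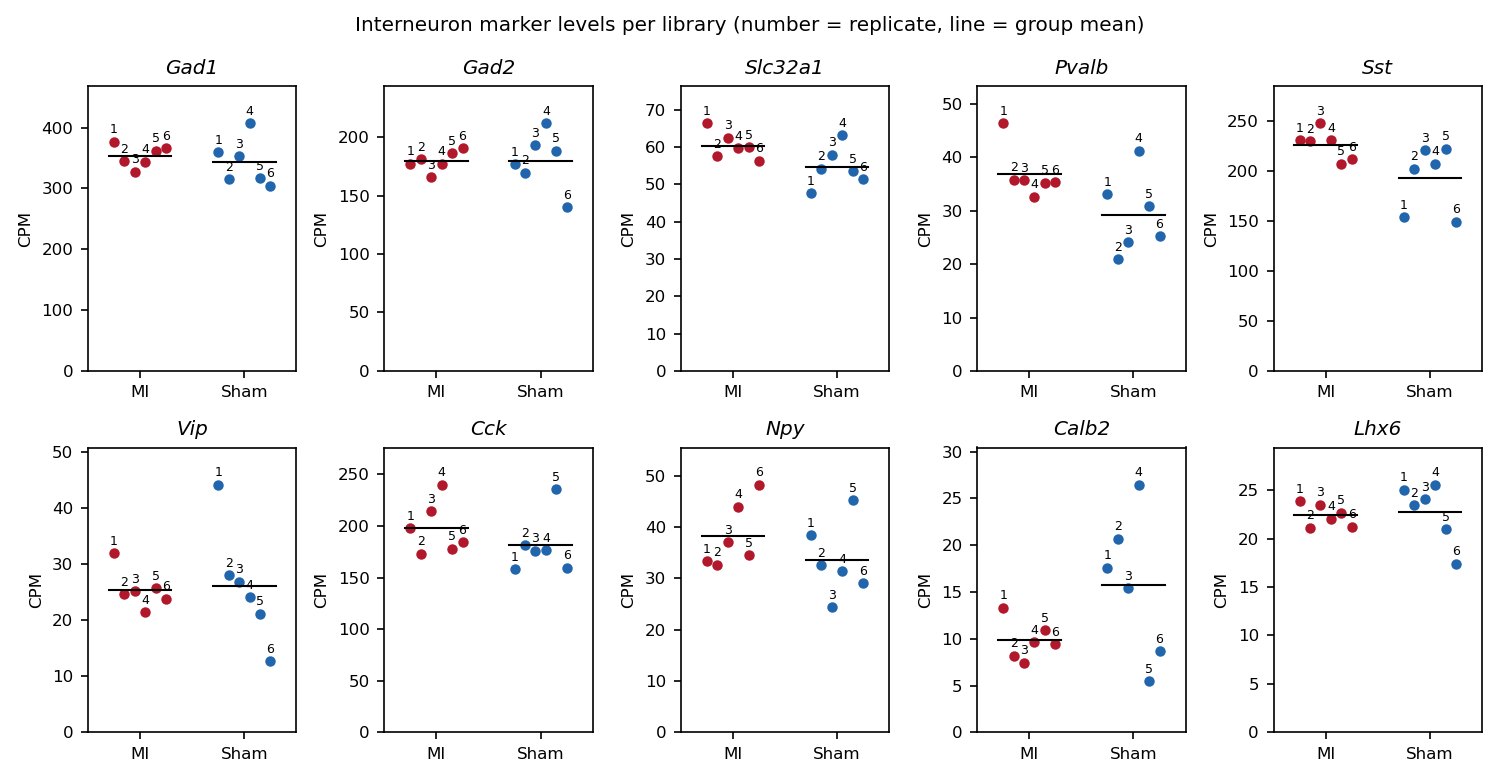
CPM of each marker gene in each library, MI left of Sham, with replicate numbers and group means as lines. The groups overlap in all 10 genes, as in all but 0.41% of genes tested, and the MI libraries spread less than the Sham libraries. Vip runs from 21.4 to 31.9 CPM in MI and from 12.7 to 44.1 in Sham.

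Markers of the lineage from the medial ganglionic eminence gave higher means in MI for Sst and Pvalb, without passing the adjusted threshold, and near-equal means for Lhx6. Sst (ENSMUSG00000004366, chromosome 16, 23889573 to 23890958), which encodes the inhibitory peptide somatostatin, had 207, 230.4 and 248 CPM in MI, against 149, 205 and 223 in Sham. Sham 6 and Sham 1 were the lowest, at 149 and 154 CPM, and the other 4 Sham libraries lay between 202 and 223, inside or just under the MI range. The means were 227 ± 14.7 CPM over MI libraries and 193 ± 32.9 over Sham libraries (SD, n = 6), a log2 fold change of 0.23 (SE 0.10, interval 0.02 to 0.45). The edgeR adjusted p was 0.635 (unadjusted 0.0372), and Sst was the only member under 0.05 in the exact permutation test (p = 0.0433, two-sided, with 0.00216 the smallest p that 924 splits can give). Without Sham 1 and Sham 6 the log2 fold change was 0.09 (SE 0.06, unadjusted p 0.152 in edgeR), which is more than 1.5 times smaller.

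Pvalb (ENSMUSG00000005716, chromosome 15, 78191114 to 78206400) encodes parvalbumin, the calcium buffer of fast-spiking basket and axo-axonic cells. It had 32.6, 35.6 and 46.4 CPM in MI, against 20.98, 28.0 and 41.3 in Sham. MI 1 stood above all other libraries and Sham 4 above the other MI libraries, while Sham 2, Sham 3 and Sham 6 lay under 26 CPM. The means were 36.9 ± 4.82 CPM over MI libraries and 29.3 ± 7.39 over Sham libraries (SD, n = 6), a log2 fold change of 0.33 (SE 0.15, interval 0.01 to 0.65) with an edgeR adjusted p of 0.645 (unadjusted 0.0434). The exact permutation test gave p = 0.0693. Without Sham 4 its log2 fold change was 0.46 (SE 0.12, adjusted p 0.241 in edgeR), and without MI 1 it was 0.25 (SE 0.15). Without Sham 1 and Sham 6 it was 0.33 (SE 0.17). MI 1 and Sham 4 were also the highest of their groups in the sum of 6 oligodendrocyte markers, at 5035 CPM in MI 1 and 4386 CPM in Sham 4. The same held for Gad1, at 377 and 407 CPM, and for Slc32a1, at 66.4 and 63.2 CPM. Sham 6 held 3697 CPM of the oligodendrocyte markers with 25.2 CPM of Pvalb, and Sham 1 held 2363 CPM with 33.2 CPM of Pvalb.

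Lhx6 (ENSMUSG00000026890, chromosome 2, 36081953 to 36105408), the transcription factor that parvalbumin and somatostatin cells share, had 21.1, 22.4 and 23.8 CPM in MI, against 17.4, 23.8 and 25.6 in Sham. Its log2 fold change was -0.02 (SE 0.08, interval -0.20 to 0.16), and 1 of 6 MI libraries lay above the Sham median. It was -0.07 (SE 0.06) without Sham 1 and Sham 6. Reads of Sst per read of Lhx6 ranged from 9.15 to 10.9 in MI and from 6.14 to 10.6 in Sham, and reads of Pvalb per read of Lhx6 from 1.48 to 1.95 in MI and from 0.896 to 1.61 in Sham. Both ratios overlapped between the groups.

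Genes of parvalbumin and somatostatin cells, from lists that were chosen for their known roles and include the members Pvalb, Sst and Npy, were split in direction. Of 9 parvalbumin cell genes 0 were called, and the list median was 0.16 against -0.01 over all genes. An unadjusted p under 0.05 was found for 3 of the 9, all with the higher mean in MI, against 7.55% of all genes. Beside Pvalb these were Syt2, a calcium sensor of fast transmitter release, and Ank1, an ankyrin. Syt2 had 67.2 ± 9.73 CPM over MI libraries and 46.7 ± 19.2 over Sham libraries, a log2 fold change of 0.52 (SE 0.21), and Ank1 had 0.23 (SE 0.10). Like Pvalb, Syt2 was highest in MI 1 among MI libraries (78.0 CPM) and in Sham 4 among Sham libraries (84.2 CPM). Those libraries were the highest of their groups in Gad1, Slc32a1 and the sum of oligodendrocyte markers, and all 6 oligodendrocyte markers had higher means in MI. The part of oligodendrocytes or of other dissected tissue in the Pvalb and parvalbumin list values was not tested. Kcns3, a potassium channel subunit, had 0.25 (SE 0.12). Of 10 somatostatin cell genes 0 were called, and the list median was 0.19. At an unadjusted p under 0.05 stood 3 with the higher mean in MI (the member Sst, Elfn1 and Pnoc) and 1 with the lower (Tacr1). Elfn1, a synaptic adhesion protein on somatostatin and other interneurons' input synapses, had 41.6 ± 2.75 CPM over MI libraries and 32.1 ± 6.78 over Sham libraries, a log2 fold change of 0.37 (SE 0.11), and Pnoc, the precursor of nociceptin, had 0.18 (SE 0.08). Tacr1, the receptor of substance P, had 1.83 ± 0.133 CPM over MI libraries and 3.24 ± 1.38 over Sham libraries (SD, n = 6), a log2 fold change of -0.81 (SE 0.24). The edgeR adjusted p of these genes ran from 0.597 for Tacr1 and Elfn1 to 0.676 for Kcns3.

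**Figure D3:**
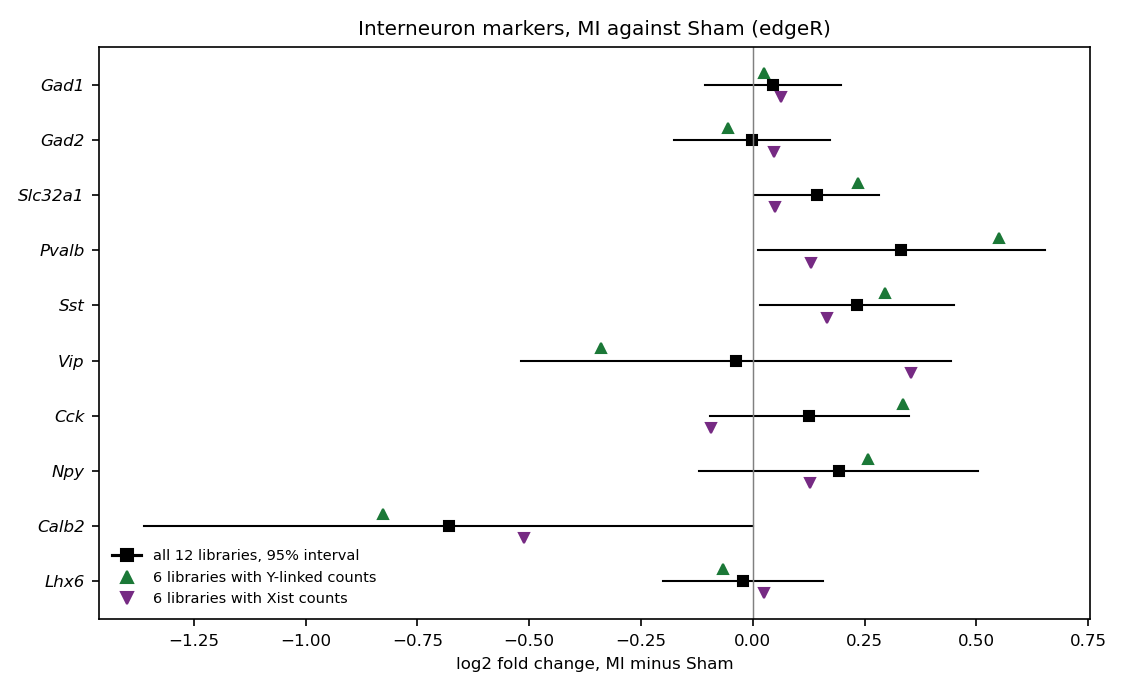
Log2 fold change of each marker, MI minus Sham (x axis), in all 12 libraries with its 95% interval (squares) and in the 6 libraries with Y-linked counts (upward triangles) or with Xist counts (downward triangles) alone. Calb2 has the largest value in size, -0.68, and Gad2, Lhx6, Cck and Vip lie on opposite sides of 0 in the separate sets.

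Npy and Cck, peptide genes of several interneuron types, had slightly higher means in MI and did not pass. Npy (ENSMUSG00000029819, chromosome 6, 49822710 to 49829507), which encodes neuropeptide Y, an inhibitory peptide of somatostatin and neurogliaform cells, had 32.7, 35.8 and 48.2 CPM in MI, against 24.4, 32.0 and 45.2 in Sham. Its log2 fold change was 0.19 (SE 0.14, interval -0.12 to 0.50, adjusted p 0.799). MI 6 and Sham 5 were the highest libraries of their groups and Sham 3 the lowest of all. The log2 fold change was 0.11 (SE 0.14) without MI 6, 0.12 (SE 0.13) without Sham 3 and 0.30 (SE 0.13, edgeR adjusted p 0.392) without Sham 5. It was 0.19 (SE 0.17) without Sham 1 and Sham 6.

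Cck (ENSMUSG00000032532, chromosome 9, 121489824 to 121495694), which encodes cholecystokinin, had 173, 191 and 240.0 CPM in MI, against 158, 176 and 235 in Sham. Its log2 fold change was 0.13 (SE 0.10, interval -0.10 to 0.35, adjusted p 0.815). Sham 5 stood apart from the other Sham libraries, which reached 181 CPM at most; without Sham 5 the log2 fold change was 0.21 (SE 0.08, adjusted p 0.338). It was 0.06 (SE 0.10) without MI 4, the highest MI library, 0.04 (SE 0.11) without Sham 1 and Sham 6, and 0.0075 (SE 0.10) with dentate and meningeal marker means as covariates. The summed level of 7 CA1 pyramidal neuron markers was 1146 to 1516 CPM in MI, 1810 CPM in Sham 5 and 641 to 1229 CPM in the other Sham libraries. The part of pyramidal neurons in the Cck values was not tested.

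Vip (ENSMUSG00000019772, chromosome 10, 5639218 to 5647617) had near-equal means but a wide Sham range. MI libraries held 21.4, 24.9 and 31.9 CPM as lowest, median and highest, and Sham libraries 12.7, 25.5 and 44.1. Sham 1 was the highest of the 12 and Sham 6 the lowest, a 1.49-fold span in MI against 3.48-fold in Sham. The log2 fold change was -0.04 (SE 0.22, interval -0.52 to 0.44, adjusted p 0.979), 0.17 (SE 0.17) without Sham 1 and 0.03 (SE 0.11) without Sham 1 and Sham 6.

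Sham 1 and Sham 6 also stood apart in markers of neighbouring tissue. Sums over 7 dentate granule cell markers were 50.3 to 214 CPM in MI, 531 CPM in Sham 6 and 55.6 to 145 CPM in the other Sham libraries. Sham 1 had the lowest sum of CA1 markers, 641 CPM, and the highest of 7 meningeal fibroblast markers, 364 CPM. It held 8.81 CPM of the neocortical marker Rspo1, where the other 11 libraries held 0.295 to 0.803. The sum of all 6 neocortical markers did not set Sham 1 apart, at 181 CPM against 147 to 182 CPM in MI. Another of them, Fezf2, was low in Sham 1, at 39.1 CPM. Sham 6 and Sham 1 were also the lowest in Sst, and Sham 6 the lowest in Gad1, Gad2, Vip and Lhx6. With the dentate and meningeal marker means as covariates, Vip had a log2 fold change of 0.25 (SE 0.08, adjusted p 0.673 in edgeR) and Sst 0.16 (SE 0.10). The part of dissected neighbouring tissue in these values was not tested further.

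Calb2 (ENSMUSG00000003657, chromosome 8, 110137502 to 110168210), which encodes the calcium-binding protein calretinin, had the largest difference of the 10 and the widest spread. It had 7.45, 9.54 and 13.3 CPM in MI, against 5.51, 16.5 and 26.5 in Sham. Sham 1, Sham 2, Sham 3 and Sham 4 lay above all MI libraries, while Sham 5 was the lowest of the 12 and Sham 6 lay within the MI range. The means were 9.83 ± 2.09 CPM over MI libraries and 15.7 ± 7.72 over Sham libraries (SD, n = 6), a log2 fold change of -0.68 (SE 0.31, interval -1.36 to 0.00) with an edgeR adjusted p of 0.663 (unadjusted 0.0501). The exact permutation test gave p = 0.180. Without Sham 1 and Sham 6 the log2 fold change was -0.79 (SE 0.35, edgeR adjusted p 0.731). The biological coefficient of variation estimated for Calb2 was 37.1%, against 8.75% for Slc32a1 and a median of 11.3% over all genes.

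The Sham libraries with high Calb2 were also high in meningeal fibroblast markers and in Reln. Sums of meningeal fibroblast markers were 98.3 to 192 CPM in MI, 226 to 364 CPM in Sham 1 to Sham 4, the highest of the 12 libraries, 94.7 CPM in Sham 5 and 70.6 CPM in Sham 6. Reln, which Cajal-Retzius cells and many interneurons secrete, ran from 76.5 to 112 CPM in MI and from 141 to 191 CPM in Sham 1 to Sham 4. The more selective Cajal-Retzius marker Trp73 ran from 1.06 to 3.07 CPM in MI and from 1.199 to 3.50 in Sham, with Sham 1 near the low end. In the list of 5 Cajal-Retzius genes 3 were tested, Lhx1 and Lhx5 being under the filter, and Reln alone had an unadjusted p under 0.05, with 100.3 ± 13.1 CPM over MI libraries and 141 ± 34.4 over Sham libraries (SD, n = 6), a log2 fold change of -0.49 (SE 0.15, edgeR adjusted p 0.597). Of 4 hilar mossy cell markers all had lower means in MI, with sums of 9.05 to 13.6 CPM in MI and 10.6 to 16.5 in Sham. These sums did not follow Calb2. The highest, 16.5 CPM, was in Sham 6, with 8.70 CPM of Calb2, and the lowest of Sham, 10.6 CPM, in Sham 2, with 20.7 CPM of Calb2. Nmb, the precursor of neuromedin B, had -0.38 (SE 0.12), and Drd2, Csf2rb2 and Calcrl had -0.25, -0.21 and -0.03. With dentate and meningeal marker means as covariates the Calb2 value was -0.27 (SE 0.31). The part of meningeal or other cells in the Calb2 difference was not tested further.

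**Figure D4:**
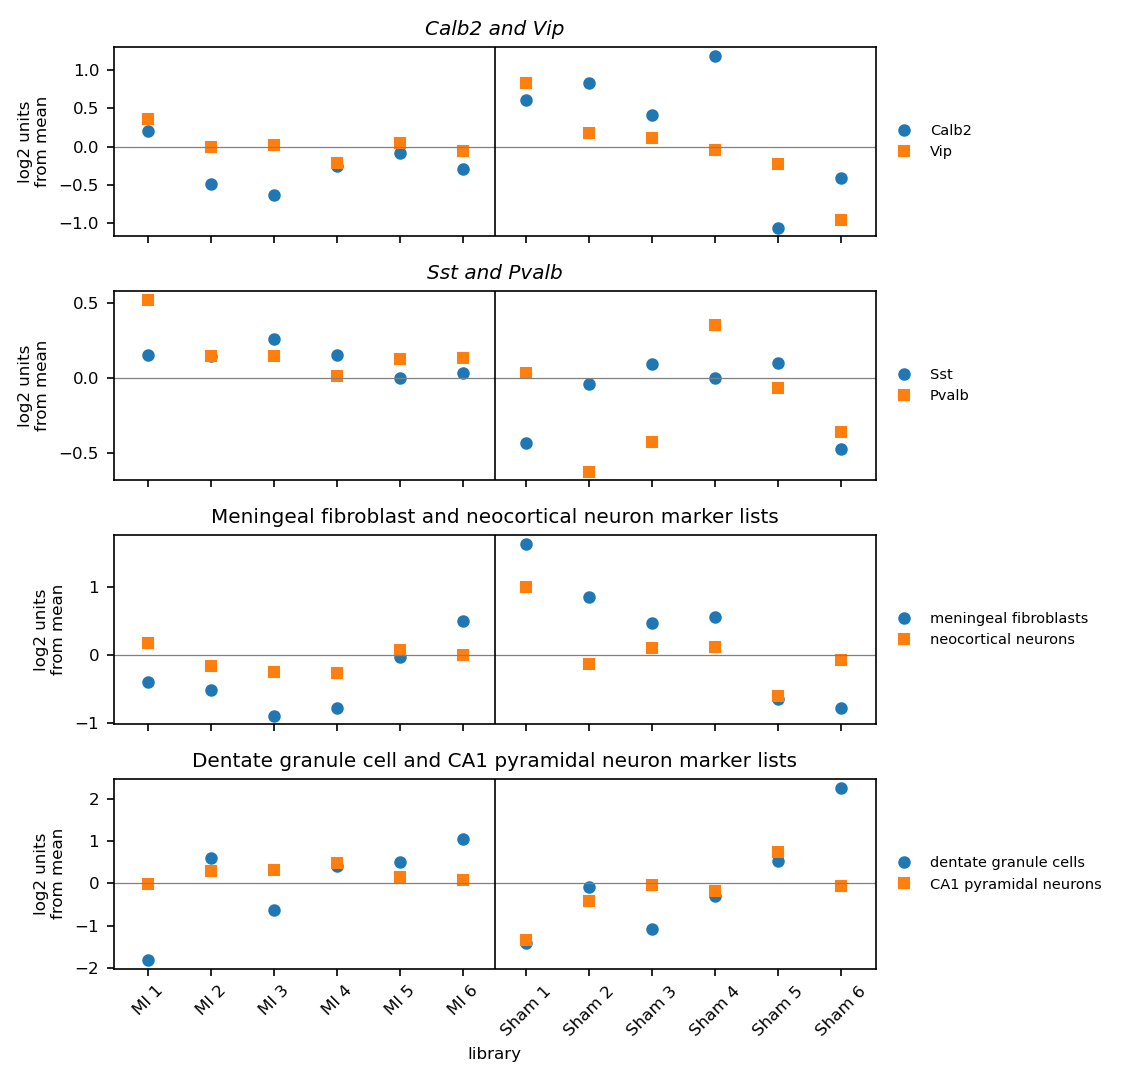
Log2 level of Calb2, Vip, Sst and Pvalb in each library, and the mean over marker lists of neighbouring cells, each as distance from the mean of 12 libraries (y axis, log2 units), MI left of the line and Sham right of it. Sham 1 to Sham 4 are high in both Calb2 and meningeal markers, and Sham 6 is high in dentate markers and low in Vip and Sst.

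Of 15 genes of VIP, CCK and neurogliaform cells 0 were called and 0 had an unadjusted p under 0.05, where 7.55% of all genes did; 10 of the 15 log2 fold changes were negative, with a median of -0.08. After Calb2 the smallest p belonged to Ndnf, a secreted protein of neurogliaform cells (-0.11, SE 0.06), Cxcl14, a chemokine of cells from the caudal eminence (0.08, SE 0.05), and Lamp5, a membrane protein of neurogliaform cells. Lamp5 had 35.3 ± 2.83 CPM over MI libraries and 52.3 ± 37.2 over Sham libraries (SD, n = 6), with 123 CPM in Sham 1. Of 14 interneuron transcription factors tested, 0 were called and 9 had negative values, with a median of -0.03. Npas1, a factor of cells from the caudal eminence, had an unadjusted p under 0.05 and a log2 fold change of 0.24 (SE 0.09). Nr2f2 (COUP-TFII) had -0.61 (SE 0.31), with 24.0 ± 5.44 CPM over MI libraries and 36.5 ± 16.9 over Sham libraries, and, like Calb2, its 4 highest libraries were Sham 1 to Sham 4, at 41.4 to 53.9 CPM. Maf, a factor of the medial lineage, had -0.14 (SE 0.08).

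Receptors of the member peptides leaned to lower means in MI without any being called. Of 11 tested receptors of somatostatin, VIP, cholecystokinin and neuropeptide Y, 10 had negative log2 fold changes with a median of -0.25, against 52.4% negative and a median of -0.01 over all genes, and 0 had an unadjusted p under 0.05. Those with the smallest p were Adcyap1r1, a receptor of the VIP family peptide PACAP (-0.18, SE 0.09), the VIP receptor Vipr2 (-0.81, SE 0.38), the neuropeptide Y receptor Npy1r (-0.25, SE 0.12) and the somatostatin receptor Sstr1 (-0.47, SE 0.24). Vipr2 was highest in Sham 2 and Sham 1, at 2.84 and 1.75 CPM, and Sstr1 in Sham 4 and Sham 2, at 24.5 and 22.5 CPM. Sstr5, Cckar and Npy4r did not pass the filter on low counts.

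Relative to the pan markers, the differences between the group means of the subtype markers had the signs given above when all 12 libraries were used. The log2 ratio of each subtype marker to the mean of Gad1, Gad2 and Slc32a1 was taken within each library, and the MI and Sham ranges overlapped for all 7. The Sst ratio averaged 0.53 ± 0.12 over MI libraries and 0.35 ± 0.20 over Sham libraries (SD, n = 6), a difference of 0.18, and 0.08 without Sham 1 and Sham 6. The Pvalb ratio averaged -2.09 ± 0.14 over MI libraries and -2.38 ± 0.29 over Sham libraries, a difference of 0.29. For Calb2 the difference was -0.59, with -4.01 ± 0.25 over MI libraries and -3.42 ± 0.77 over Sham libraries, and for Npy it was 0.14, or 0.21 without Sham 1 and Sham 6. Cck (0.06), Vip (-0.02) and Lhx6 (-0.08) differed by less than 0.1 log2 units, and without Sham 1 and Sham 6 Cck had 0.03 and Vip 0.02.

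**Figure D5:**
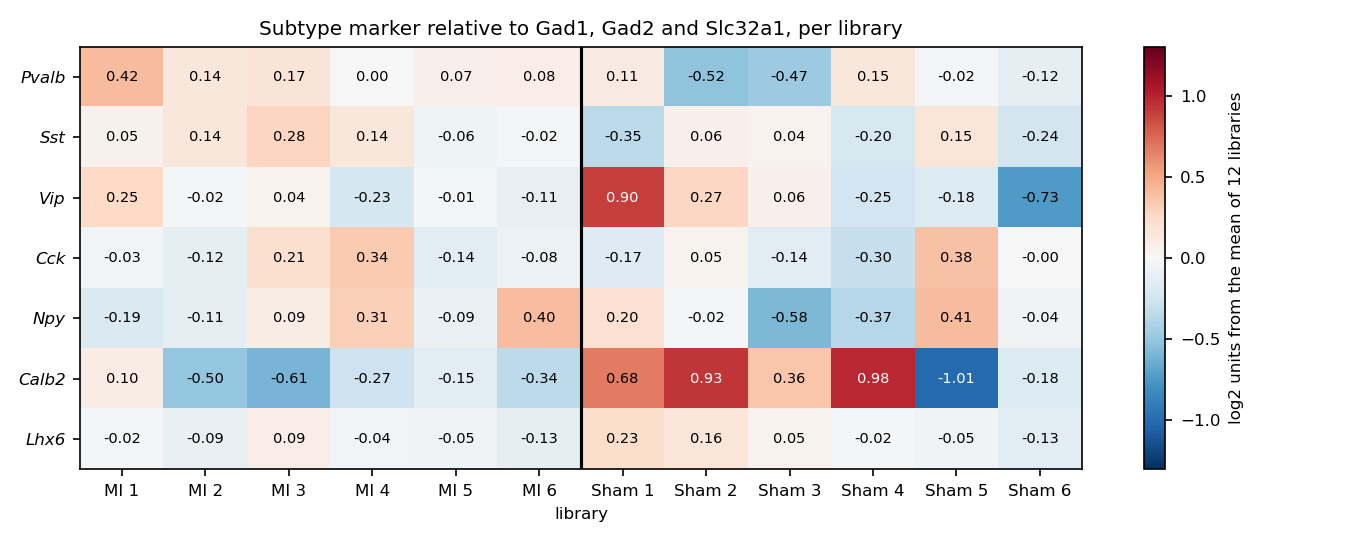
Log2 ratio of each subtype marker to the mean of Gad1, Gad2 and Slc32a1 in each library, as distance from its mean over the 12 libraries (colour and printed value), with MI left of the line and Sham right of it. Calb2 and Vip vary most, and the highest and lowest values of both lie among the Sham libraries.

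The members also spread less among MI libraries than among Sham libraries. The coefficient of variation was smaller in MI for 10 of 10 members, and for 76.2% of all genes tested. For Gad1 it was 5.07% in MI and 11.2% in Sham, and for Sst 6.51% in MI and 17.1% in Sham. Vip had 13.8% in MI and 39.7% in Sham, and Calb2 had 21.3% in MI and 49.1% in Sham. Without Sham 1 and Sham 6 it was smaller in MI for 8 of 10 members and for 61% of all genes.

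The libraries also fell into 3 per group with more counts of Y-linked genes than of Xist, the transcript of the inactive X chromosome (numbers 1, 3 and 4 of MI, and 1 to 3 of Sham), and 3 per group with more Xist counts, a split that the study's labels do not make. Within the Y-linked set 5 of 10 members had an unadjusted p under 0.05 (Cck, Calb2, Slc32a1, Pvalb and Sst), against 16.3% of all genes, and 0 had an adjusted p under 0.05, where 1.26% of genes did. Within the Xist set 0 of 10 had an unadjusted p under 0.05, against 1.27% of all genes. The sets also differed in neighbouring tissue. In the Y-linked set, sums of meningeal markers were 228 to 364 CPM in Sham and 98.3 to 152 CPM in MI. In the Xist set they were 226, 94.7 and 70.6 CPM in Sham 4, Sham 5 and Sham 6, and 137 to 192 CPM in MI. The part of dissected tissue in the differences between the sets was not tested. Cck averaged 217 ± 21.2 CPM over MI libraries and 172 ± 12.2 over Sham libraries in the Y-linked set, a log2 fold change of 0.33 (SE 0.09, edgeR adjusted p 0.118). In the Xist set Cck averaged 178 ± 5.56 CPM over MI libraries and 191 ± 39.8 over Sham libraries, a log2 fold change of -0.09 (SE 0.14). The test of the difference between the sets gave 0.43 (SE 0.18) for Cck, with an unadjusted p of 0.0300 against 8.24% of all genes under 0.05, and an edgeR adjusted p of 0.597. Vip had -0.34 (SE 0.23) in the Y-linked set and 0.35 (SE 0.22) in the Xist set, a difference of -0.69 (SE 0.35, edgeR adjusted p 0.621). That test called 2 genes (0.0119%), Gpr37 and Trh, neither of them a member and both picked for their values.

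The genes whose log2 CPM followed the members most closely over the 12 libraries were taken among 13590 genes with a mean of at least 50 counts, as a description. All points share library composition and dissection, and the highest of 13590 values is high by selection. For Pvalb they were Vamp1 (Pearson's r 0.95, Spearman's rho 0.95), Ankrd29, Rcbtb1, Aspa and Syt2 (r 0.91, rho 0.91). Among these, Vamp1 and Syt2 encode parts of the release machinery of fast-firing neurons, and Aspa (r 0.91, rho 0.84) ranked above Syt2. Which cell types these genes stand for here was not tested. For Sst they were Chst8 (r 0.94, rho 0.79), Clcn2, Mchr1, Eml2 and Pcnx2, and for Npy P2rx4 (r 0.85, rho 0.94), Acsl1, Zfp511, Cab39 and Npas4. For Calb2 they were R74862 (r 0.94, rho 0.92), Adgra3, Cspg5, the somatostatin receptor Sstr1 (r 0.93, rho 0.87) and Lhfpl3, and for Cck Plch2 (r 0.94, rho 0.84), Drap1, Pfn2, Hsp90ab1 and Aimp1. For Vip they were Sept7 (r 0.97, rho 0.83), Syt4, Atp6ap2, Cdh7 and Rgs4, and for Lhx6 Pfdn4 (r 0.97, rho 0.93), Armcx1, Zcchc18, Rnf14 and Resp18. The mean of the pan markers was followed by Cerk (r 0.94, rho 0.92), Adamtsl1, Ppargc1a, Stambpl1 and Lbh. Taken alone, Gad1 was followed by Syne2 (r 0.93, rho 0.89), Sparcl1, Hsd17b12, Ubxn2a and Slc38a1, Gad2 by Filip1l (r 0.90, rho 0.82), Nedd9, Hspa4l, Cntn3 and Tnfaip8l3, and Slc32a1 by Abca2 (r 0.96, rho 0.92), Rgma, Rell2, Flywch1 and G6pdx.

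None of the 10 markers is among the 1059 genes of the authors' deposited tables of MI against Sham. Of the lists of interneuron genes and peptide receptors, 9 genes are. The authors' deposited table of higher genes gives Syt2 a log2 fold change of 0.56, Elfn1 0.26 and Satb1, a factor of medial eminence cells, 0.24. The authors' deposited table of lower genes gives Nos1, the neuronal nitric oxide synthase, -0.40, the neuropeptide Y receptor Npy2r -0.37, Tacr1 -0.26, Nr2f2 -0.22, the somatostatin receptor Sstr3 -0.20 and Grin3a, a glutamate receptor subunit of somatostatin cells, -0.19. From the counts, edgeR gave the same sign for all 9, with 0.02 (SE 0.17) for Satb1, -0.25 (SE 0.13) for Nos1, -0.33 (SE 0.24) for Npy2r, -0.05 (SE 0.13) for Sstr3 and -0.10 (SE 0.14) for Grin3a, and none passed its adjusted threshold. Among the marker lists of neighbouring cells, the authors' deposited tables hold Fezf2 (0.36), Slc17a6 (0.68), Sema5b (0.31), Cdh24 (0.27), Fibcd1 (-0.28), Reln (-0.33) and the myelin genes Mbp (0.45), Cldn11 (0.45), Mag (0.42), Opalin (0.41) and Mog (0.41). For Fibcd1 the counts gave the opposite sign, 0.10 (SE 0.31).

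Marker lists of cells other than interneurons had 0 genes called, like the rest. At an unadjusted p under 0.05 stood all 6 oligodendrocyte markers, higher in MI, with a list median of 0.51 and sums of 3915 to 5035 CPM in MI and 2175 to 4386 in Sham, and 4 of 7 meningeal fibroblast markers (Col1a1, Ogn, Col1a2 and Igf2), lower in MI, with a median of -0.85. The CA1 list had a median of 0.20 with 7 of 7 positive, the CA2 and CA3 list 0.44 with 7 of 7 positive, and the dentate list -0.49 with 1 of 7 positive. That positive gene, Sema5b, was the only dentate marker at an unadjusted p under 0.05, with 0.34 (SE 0.10), and Cdh24 the only CA2 and CA3 marker, with 0.44 (SE 0.12). Sums of 6 striatal neuron markers, which would mark GABAergic neurons from outside the hippocampus, ran from 169 to 182 CPM in MI and from 170.2 to 221 in Sham, with a median log2 fold change of -0.06. Neocortical (-0.28), thalamic and habenular (0.14) and choroid plexus lists (0.46, with 2 of 5 genes tested) had 1, 0 and 0 genes at an unadjusted p under 0.05.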

How the data were processed

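Polyadenylated RNA of CA1 tissue was measured in 12 libraries, and the deposited values are raw counts of reads per Ensembl gene; the submitters' processing notes name FastQC 0.11.5, STAR 2.5.2b, featureCounts, Subread 1.5.1 and mm10, and the sources used here do not say if counting used strand. The authors' deposited tables hold log2-scale expression values, log2 fold changes and adjusted p-values, whose making the sources used here do not describe. Symbols, coordinates and exon lengths were taken from GENCODE M21 (mm10), which names 48349 of 48709 IDs; of the members, Slc32a1 and Lhx6 overlap other counted genes (697 and 104 bases), each of which held at most 1 count in any library. Dlx6os1 matched more than 1 ID and is given no value.

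Genes were kept by filterByExpr (16829), scaled by TMM, and tested with edgeR 4.0.16 (R 4.3.3; glmQLFit with robust dispersion, two-sided) with Benjamini-Hochberg adjustment over all genes and a threshold of 0.05. SE and 95% intervals are from that fit. The log2 CPM values used for ratios and exact tests had a prior count of 2. The gene tests pool information over genes, and the exact test used each gene's own libraries. On data simulated once for 16689 genes, the MI against Sham test recovered 20%, 76%, 94% and 98% of 50 genes each changed 1.2-, 1.5-, 2- and 3-fold, with 7 false calls. The members and lists were chosen with earlier results of these data known. Named genes are the members, the list genes with an unadjusted p under 0.05 (at least 4 a list), the 5 genes most like each member and list genes in the authors' tables; others are named for their values, and 1 gene that the rule names is not reported here. Alternatives were DESeq2 1.42.0, limma-voom (limma 3.58.1), other scalings and filters, a replicate block, covariates, subsets of libraries and leaving out each library. No pair of libraries within a group was a duplicate (chi-square per degree of freedom from 6.27 to 79.8 over 30 pairs).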

Additional observations from a re-analysis of the deposited data

Results flagged for a closer look

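In 20 groups of 6 libraries (10 genes in MI and in Sham), 2 held a library far from the others by the ratio of its gap to the group's range, and chance gives about 1 in 20. Pvalb in MI 1, at 46.4 CPM, had a ratio of 0.769, above the critical value for 6 libraries, and without MI 1 the Pvalb log2 fold change was 0.25 (SE 0.15, edgeR adjusted p 0.848). Cck in Sham 5, at 235 CPM, had a ratio of 0.700.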

How the results depend on the processing

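The count of genes called in MI against Sham, 0 in edgeR, was 16 with DESeq2 and 211 in the Y-linked set alone, and 0 under the other settings, including each library left out. No member was called under any setting run; the smallest adjusted p of a member was 0.118, for Cck in the Y-linked set. The 3 members at an unadjusted p under 0.05 became 5 in the Y-linked set and 0 in the Xist set. They became 1 each with library size alone (Sst), without Sham 1 and Sham 6 (Calb2) and with the dentate and meningeal covariates (Vip). With limma-voom the count was again 3, but for Pvalb, Npy and Calb2. There Sst had 0.16 (SE 0.08) and Slc32a1 0.08 (SE 0.06). Leaving out 1 library gave 0 to 4, with 0 without MI 3. Gad1, Slc32a1, Pvalb, Sst, Npy and Calb2 kept their sign throughout. Gad2 turned sign without a filter (0.0061), with the replicate block (0.0080), in the Xist set (0.048), with the covariates (0.047) and as a plain difference of mean log2 CPM (0.0085), and ran from -0.066 to 0.050 with 1 library left out. Vip turned with the replicate block (0.037), the set as covariate (0.0070), in the Xist set (0.35), without Sham 1 and Sham 6 (0.026), with the covariates (0.25) and as a plain difference (0.046), and ran from -0.18 to 0.17 with 1 library left out. Cck turned in the Xist set (-0.093), and ran from 0.064 to 0.21. Lhx6 turned in the Xist set (0.025) and with the covariates (0.033), and ran from -0.089 to 0.014. The count of members with smaller variation in MI was 8 to 10 with 1 library left out. The cause was not tested. Deviations of libraries with the same number had correlations from -0.35 to 0.405, and 3 of 6 were best with their own number. The labels do not say if the numbers pair libraries, and so few correlations of mixed sign cannot settle it. With the replicate block 0 genes were called, and Sst had 0.25. The ratios to the pan markers without Sham 1 and Sham 6, and the counts of smaller variation, were added after the data were examined.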

Other observations

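Members differed in how far they followed each other over the 12 libraries, given here as a description of libraries that share composition. Vip and Lhx6 had a Pearson's r of 0.83 (Spearman's rho 0.71), Slc32a1 and Sst 0.77 (0.62), Gad1 and Gad2 0.75 (0.61) and Gad1 and Pvalb 0.70 (0.70). Calb2 ran against Cck, with r -0.49 (rho -0.35), and against Npy, with r -0.45 (rho -0.43).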
